A study of Mus musculus with 12 samples.

Results

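The Notch pathway genes described here are Hes1, Dtx1, Notch1, Notch2, Notch3, Rbpj, Nrarp, Lfng, Mfng and Ptcra, measured in mouse B-lineage progenitors after forced expression of the transcription factor EBF1 or PAX5. All probe sets that the array's annotation assigns to 1 of these 10 symbols were taken, which gave 18 of the 45037 probe sets on the array and 10 of its 18193 named genes. Only 3 of the 10 genes (Hes1, Mfng and Ptcra) had a single probe set, and the members are shown probe set by probe set because the probe sets of a gene did not always move together.

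RNA was hybridised to 12 one-colour Affymetrix arrays in 4 groups of 3. The groups were Ebf1-/- pre-pro-B cells transduced with Mig-EBF1 (set 1), the same cells transduced with Mig-PAX5 (set 2), and the same cells carrying the empty MigR1 vector as the control of each set. Every group, controls included, therefore lacked functional Ebf1 alleles, came from the C57BL/6 strain, and was grown on OP9 stroma, a bone marrow stromal line, in 4% serum with SCF and Flt3L at 10 ng/ml and IL-7 at 5 ng/ml. The retroviruses also carried GFP, by which transduced cells were sorted 2 days later, so all values are from cultured, virally transduced progenitors at a single time. The labels do not give the animals' age or say whether the 3 arrays of a group came from separate animals or cultures, and a p-value therefore reflects no more than the spread between arrays that may be technical replicates.

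Notch receptors are cleaved when a ligand on a neighbouring cell engages them, and the freed intracellular part enters the nucleus, joins the DNA-binding protein RBPJ and Mastermind coactivators, and switches on targets such as Hes1, Dtx1, Nrarp and, in thymocytes, Ptcra. In lymphoid progenitors Notch1 signalling directs cells to the T lineage, and Notch2 is known for its role in marginal zone B cells. PAX5 is known as a repressor of Notch1 in B-lineage cells.

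Controls bearing equal replicate numbers in set 1 and set 2 were nearly the same measurement: their difference had a robust SD of 0.0392 to 0.0942 on the log2 scale over 12889 bright probe sets, against 0.287 to 0.374 for controls of unequal number. PAX5 arrays 2 and 3 were also closer (0.0774) than other arrays of a group (0.211 to 0.359). These pairs were counted once, which left 3 EBF1, 2 PAX5 and 3 control samples, and both comparisons share their controls. Both are given with the values of all 12 arrays. Median intensity was 57.6 to 60.6 on EBF1 arrays and 55.1 to 58.4 on the set 1 controls, against which they were set, and 65.3 to 68.9 on PAX5 arrays and 67.6 to 67.9 on the set 2 controls. The Pax5 probe set averaged 1380 ± 663 on PAX5 arrays (SD, n = 2) and 9.93 ± 2.56 on set 2 controls (SD, n = 3). The Ebf1 probe set read 1886, 2477 and 1917 on EBF1 arrays, against 2027, 2173 and 2148 on set 1 controls. Where its probes lie relative to the deleted exons and the viral insert is not stated in these sources, so it checks neither. The EBF1 targets that encode the surrogate light chain did follow the label: Vpreb1 averaged 4479 ± 1975 on EBF1 arrays and 32 ± 12.4 on set 1 controls (SD, n = 3 each). Of 11 progenitor markers 9 were above 100 on all 12 arrays, which include Ptprc, Il7r and Flt3. The others were Kit, at 37.9 to 379 over the arrays, and Dntt, at 28.3 to 809. Levels were not even across groups: Flt3 lay below its controls in both sets. Its log2 changes were -0.87 with EBF1 and -0.94 with PAX5 (limma adjusted p = 0.23 and 0.25).

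Hes1, the transcriptional repressor that is the best known direct Notch target, was the member with the largest change, and it was higher with either factor. Its single probe set, 1418102_at, read 903, 604 and 273 intensity units on the EBF1 arrays, against 40.4, 49.9 and 32.3 on the set 1 controls. On the PAX5 arrays it read 745, 412 and 403, against 48.6, 58.1 and 40.3 on the set 2 controls. In each set every transduced array was above every control, and EBF1 array 3 was the lowest of the 6 transduced arrays.

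Group means of Hes1 were 593 ± 315 with EBF1 and 40.8 ± 8.8 in its controls (SD, n = 3 each), a 14.5-fold ratio of means. With PAX5 they were 576 ± 239 (SD, n = 2) and 49 ± 8.9 in its controls (SD, n = 3), an 11.8-fold ratio. On the log2(intensity + 16) scale the rise was 3.28 with EBF1 (SE 0.39, limma adjusted p = 0.029) and 3.14 with PAX5 (SE 0.44, limma adjusted p = 0.021). The EBF1 change minus the PAX5 change was 0.15, with a 95% interval of -0.85 to 1.15 (limma adjusted p = 0.92), and that interval allows a difference in either direction. Leaving out any 1 control ended both calls, with adjusted p of 0.11 to 0.19 for EBF1 and 0.076 to 0.11 for PAX5, as did leaving out PAX5 array 1, with 0.069 for EBF1 and 0.33 for PAX5. Leaving out EBF1 array 2 gave 0.12 for EBF1, and leaving out EBF1 array 3 gave a rise of 3.74 with adjusted p = 0.00091. Pairing EBF1 and control arrays by a replicate block gave adjusted p = 0.15 in set 1 alone, where the unpaired fit gave 0.12, and 0.03 in the joint fit. A pseudocount of 1 or 64 ended both calls (0.069 and 0.18 with EBF1, 0.064 and 0.073 with PAX5).

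**Figure D1:**
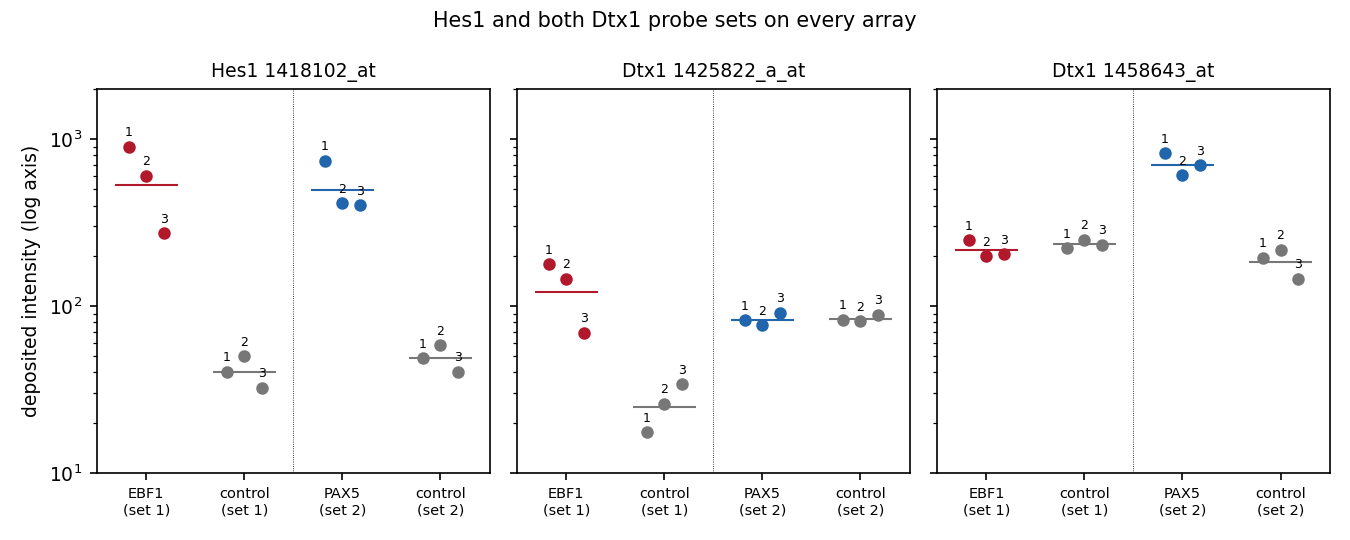
Deposited intensity (log axis) of Hes1 and both Dtx1 probe sets on all 12 arrays, by group; numbered points are arrays and horizontal lines are geometric means of the 3 arrays. Hes1 is above 270 on all EBF1 and PAX5 arrays and below 60 on all controls, while 1425822_a_at of Dtx1 is set apart in set 1 and 1458643_at in set 2.

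Dtx1, an E3 ubiquitin ligase that binds the intracellular part of Notch receptors and is itself a Notch target, had probe sets that gave opposite pictures of the 2 factors. Probe set 1425822_a_at read 178, 146 and 69 on EBF1 arrays, against 17.5, 25.9 and 34 on set 1 controls. It read 82.2, 76.4 and 90.9 on PAX5 arrays, against 82.6, 80.9 and 88.7 on set 2 controls. The groups did not overlap in set 1 and overlapped fully in set 2.

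For this probe set the EBF1 mean was 131 ± 56.2 and the control mean 25.8 ± 8.25 (SD, n = 3 each), a ratio of 5.08, and the log2 change of 1.75 (SE 0.27) did not pass the threshold (limma adjusted p = 0.088). It passed without EBF1 array 3, with a change of 2.10 and adjusted p = 0.00081. With PAX5 the change was -0.02 (SE 0.31, limma adjusted p = 1). The 2 changes differed by 1.77 (SE 0.31, limma adjusted p = 0.037). That difference was not past the threshold without control 1, 2 or 3 (0.084, 0.061 and 0.06), without EBF1 array 1 or 2 (0.089 and 0.11), or without PAX5 array 1 (0.36). Nor was it at a pseudocount of 1 or 64 (0.069 and 0.085) or with all 12 arrays counted separately (0.07).

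Probe set 1458643_at of Dtx1 read 248, 199 and 205 on EBF1 arrays, against 222, 250 and 233 on set 1 controls. On PAX5 arrays it read 824, 607 and 697, against 195, 218 and 146 on set 2 controls. Here the groups overlapped in set 1, and every PAX5 array was above every control in set 2.

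The PAX5 mean was 738 ± 122 (SD, n = 2) and the control mean 186 ± 37 (SD, n = 3), a 3.96-fold ratio, and the log2 rise was 1.90 (SE 0.17, limma adjusted p = 0.002). The EBF1 change of this probe set was -0.11 (SE 0.15, limma adjusted p = 0.88). The EBF1 change minus the PAX5 change was -2.01 (SE 0.17, limma adjusted p = 0.001). The rise with PAX5 passed the threshold whichever single sample or array was left out, with adjusted p of 0.0014 to 0.04. When the log2 values of both Dtx1 probe sets were averaged, the PAX5 change was 0.94 (adjusted p = 0.087) and the EBF1 change 0.82, with a difference of -0.12.

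The level of 1425822_a_at also differed between control sets that appear to be the same hybridisations. It was 1.28 higher in set 2 controls than in set 1 controls on the log2 scale. The bright Rbpj probe set 1448957_at differed by 0.01, and 6.01% of all probe sets differed by more than 1 in either direction. Among the members, Rbpj 1418114_at (1.64) and this Dtx1 probe set were beyond 1, and Lfng 1449943_at followed at 0.74. A change of a given size in intensity gives a smaller log2 change in the set with the higher base. On the linear scale 1425822_a_at differed from its controls by 105 intensity units with EBF1 and by -1.16 with PAX5. These differences use the same values, and whether the higher set 2 level hid a change with PAX5 was not tested. What set the control levels apart was not tested, and levels were compared only within a set.

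**Figure D2:**
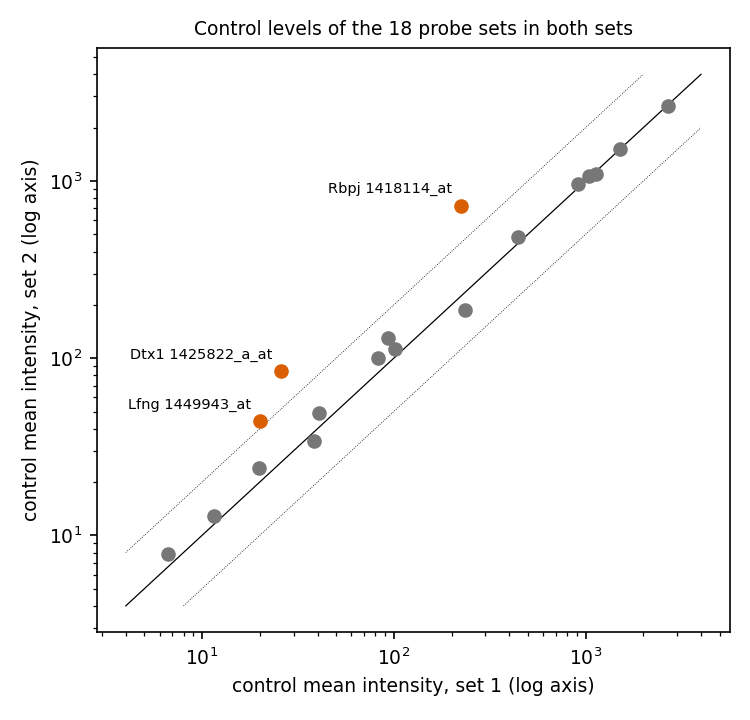
Mean intensity of the 18 member probe sets in set 2 controls (vertical, log axis) against set 1 controls (horizontal, log axis), with 1 point per probe set, a solid line of equality and dotted lines at 1 log2 unit above and below. Labelled are Rbpj 1418114_at, Dtx1 1425822_a_at and Lfng 1449943_at, which lie above the line. Their set 2 controls were higher by 1.64, 1.28 and 0.74 on the log2(intensity + 16) scale, which is not the scale of the axes. On that scale the other probe sets differed by at most 0.43 in either direction.

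Of the 18 member probe sets, 1 rose with EBF1 at adjusted p under 0.05 and 0 fell (limma), where 0.0977% of all probe sets were called in either direction, 0.0933% as higher and 0.00444% as lower. With PAX5, 2 rose and 0 fell, where 0.515% of all probe sets were called, 0.464% as higher and 0.0511% as lower. Counting rises and falls together, 8 member probe sets (44.4%) had an unadjusted p under 0.05 with EBF1, where 9.97% of all probe sets did. With PAX5 4 did (22.2%), where 8.51% of all probe sets did. Those that fell were Notch2 1455556_at, Rbpj 1418114_at and 1448957_at and Lfng 1449943_at with EBF1, and both Notch1 probe sets with PAX5. The 2 changes differed for 2 member probe sets, both of Dtx1 and in opposite directions, where 1.05% of all probe sets were called, 0.28% with the EBF1 change above and 0.77% with it below. The median log2 change of the 18 was 0.04 with EBF1 and 0.02 with PAX5, against 0.02 and -0.01 over all probe sets. The members moved in both directions, 10 of 18 above 0 in each comparison, so these medians do not show how far single members moved.

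**Figure D3:**
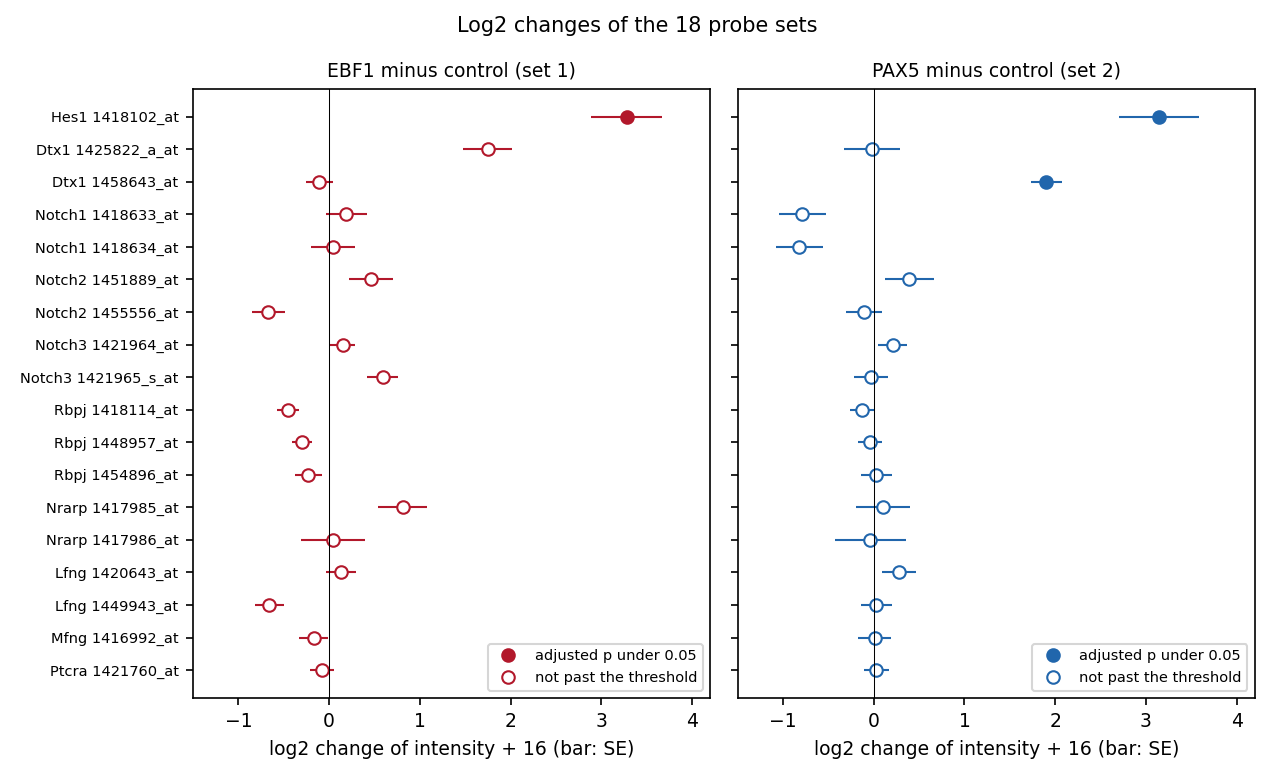
Log2 change of (intensity + 16) for each member probe set, EBF1 minus set 1 control on the left and PAX5 minus set 2 control on the right; points are limma estimates, bars their SE, and filled points have an adjusted p under 0.05. Hes1 is filled in both panels at 3.28 and 3.14, and Dtx1 1458643_at is filled on the right at 1.90.

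Both Notch1 probe sets and Notch2 1455556_at read at least 551 on every array. The remaining receptor probe sets were dimmer, and no detection calls were made. Notch1, the receptor that drives T-lineage entry, was measured by 2 probe sets, and neither change passed the threshold with either factor. Probe set 1418633_at read 1504, 1651 and 856 on EBF1 arrays, against 1230, 1129 and 1021 on set 1 controls. It read 673, 572 and 612 on PAX5 arrays, against 1183, 1085 and 1036 on set 2 controls. Both groups overlapped in set 1, and the PAX5 arrays lay below their controls in set 2. Probe set 1418634_at read 2927, 3373 and 1993 on EBF1 arrays, against 3487, 2089 and 2469 on set 1 controls. It read 1578, 1320 and 1378 on PAX5 arrays, against 3407, 2084 and 2455 on set 2 controls. Again every PAX5 array was below every set 2 control, while EBF1 arrays and their controls overlapped.

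The log2 changes with PAX5 were -0.79 for 1418633_at (SE 0.26, limma adjusted p = 0.39, unadjusted 0.014) and -0.82 for 1418634_at (SE 0.26, limma adjusted p = 0.38, unadjusted 0.013). The ratios of PAX5 to control means were 0.574 and 0.553. The same probe sets changed by 0.19 and 0.04 with EBF1 (limma adjusted p = 0.85 and 0.98). The EBF1 change minus the PAX5 change was 0.98 (limma adjusted p = 0.13) and 0.87 (limma adjusted p = 0.19). With set 2 fitted alone and all its arrays counted separately, 1418633_at passed the threshold at -0.82 (adjusted p = 0.032), and with a replicate block in that fit it did not (adjusted p = 0.073). Its difference between EBF1 and PAX5 changes passed without EBF1 array 3 (1.27, adjusted p = 0.0068) and with PAX5 arrays 2 and 3 separate (1.01, adjusted p = 0.041). Fits that count PAX5 arrays 2 and 3 separately use more samples than are distinct, so their p-values are too small.

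Notch2 is the receptor used by marginal zone B cells. Its probe set 1455556_at read 551, 611 and 781 on EBF1 arrays, against 1187, 1088 and 842 on set 1 controls, and 1091, 872 and 893 on PAX5 arrays, against 1208, 1109 and 889 on set 2 controls. The EBF1 arrays all lay below their controls and the PAX5 arrays overlapped theirs. The log2 changes were -0.67 with EBF1 (SE 0.18, limma adjusted p = 0.25, unadjusted 0.005) and -0.11 with PAX5 (limma adjusted p = 0.95). A second Notch2 probe set, 1451889_at, read between 1 and 23.8 on all arrays, which is too dim to say more of.

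Notch3, a receptor also used by immature thymocytes, read 133, 208 and 150 on EBF1 arrays with 1421965_s_at, against 96.1, 97.6 and 113 on set 1 controls. It read 120, 102 and 93.6 on PAX5 arrays, against 106, 105 and 125 on set 2 controls. The set 1 groups did not overlap, but the EBF1 change of 0.59 did not pass the threshold (SE 0.17, limma adjusted p = 0.29), and the PAX5 change was -0.03. Its other probe set, 1421964_at, read between 10.5 and 26.2 throughout.

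**Figure D4:**
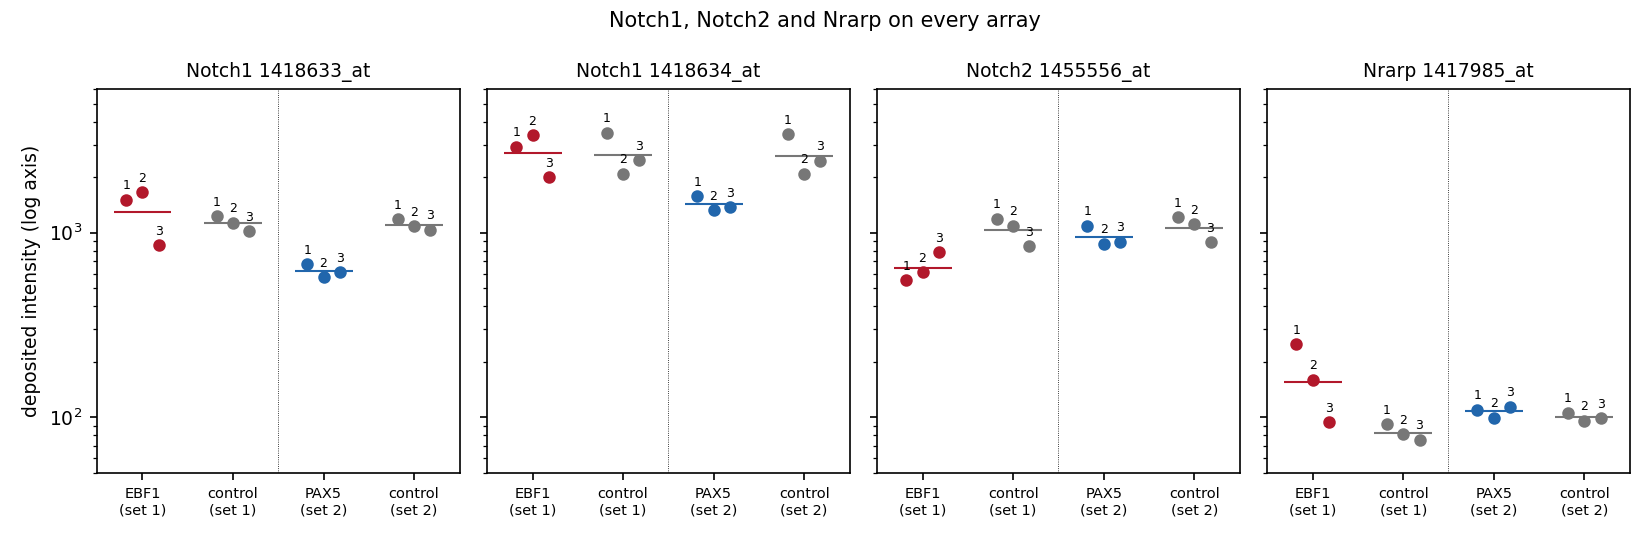
Deposited intensity (log axis) of both Notch1 probe sets, Notch2 1455556_at and Nrarp 1417985_at on all 12 arrays; numbered points are arrays and lines geometric means of 3 arrays. Notch1 is lowest on PAX5 arrays (572 to 673 with 1418633_at), Notch2 on EBF1 arrays (551 to 781), and Nrarp is highest on EBF1 arrays 1 and 2.

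Rbpj, which encodes the DNA-binding protein shared by all Notch receptors, had 3 probe sets, and none passed the threshold with either factor. Probe set 1448957_at read 1153, 1216 and 1311 on EBF1 arrays, against 1470, 1599 and 1469 on set 1 controls. On PAX5 arrays it read 1552, 1427 and 1412, against 1478, 1610 and 1483 on set 2 controls. EBF1 arrays lay below their controls and PAX5 arrays overlapped theirs.

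The log2 changes of the 3 Rbpj probe sets with EBF1 were -0.45 for 1418114_at, -0.30 for 1448957_at and -0.23 for 1454896_at (limma adjusted p = 0.24, 0.43 and 0.68). With PAX5 the changes were -0.13, -0.04 and 0.03 in the same order (limma adjusted p = 0.87, 0.98 and 0.99). The widest of the 95% intervals for PAX5 ran from -0.35 to 0.41. Probe set 1418114_at read 148 to 168 on EBF1 arrays and 187 to 261 on set 1 controls, and 608 to 696 on PAX5 arrays and 698 to 772 on set 2 controls.

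Nrarp, a Notch target whose product limits Notch signalling, was highest on EBF1 array 1 and lowest of its group on EBF1 array 3, as Hes1 was. Probe set 1417985_at read 249, 160 and 93.8 on EBF1 arrays, against 91.9, 80.7 and 75.5 on set 1 controls, and 110, 99.4 and 114 on PAX5 arrays, against 106, 95.5 and 98.9 on set 2 controls. All EBF1 arrays were above their controls, array 3 only just, and PAX5 arrays overlapped theirs. The log2 change of 0.81 with EBF1 did not pass the threshold (SE 0.27, limma adjusted p = 0.37), and with PAX5 it was 0.10 (limma adjusted p = 0.97). Without EBF1 array 3 the EBF1 change was 1.13 and passed (adjusted p = 0.032). The second probe set, 1417986_at, read 10.6 to 70 over all arrays and changed by 0.04 with EBF1 and -0.04 with PAX5.

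Lfng and Mfng encode Fringe glycosyltransferases, which add sugars to Notch receptors and alter which ligands activate them. Lfng read 110, 84.2 and 112 on EBF1 arrays with 1420643_at, against 95, 115 and 69.3 on set 1 controls, and 155, 176 and 154 on PAX5 arrays, against 133, 150 and 105 on set 2 controls. The EBF1 arrays overlapped their controls and the PAX5 arrays lay above theirs, with log2 changes of 0.13 and 0.28 that did not pass (limma adjusted p = 0.87 and 0.77). The dim Lfng probe set 1449943_at read 7.11, 4.37 and 9 on EBF1 arrays, against 20.7, 22.6 and 16.6 on set 1 controls.

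EBF1 arrays were thus below their controls on that probe set. The log2 change was -0.66 (limma adjusted p = 0.2, SE 0.16), while the PAX5 change was 0.03. Mfng read 329, 396 and 461 on EBF1 arrays, against 384, 529 and 424 on set 1 controls, and 441, 508 and 538 on PAX5 arrays, against 419, 546 and 477 on set 2 controls. Its groups overlapped in both sets, with log2 changes of -0.17 and 0.01 (limma adjusted p = 0.81 and 1).

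Ptcra encodes the pre-T-cell receptor alpha chain and is a Notch target in thymocytes. It read 21.3, 14.9 and 17.8 on EBF1 arrays, against 19.5, 24.2 and 16.1 on set 1 controls, and 26.3, 25.4 and 21.4 on PAX5 arrays, against 22.6, 27.8 and 21.9 on set 2 controls. All 12 values were dim and overlapped, with changes of -0.08 and 0.03 on the log2 scale. The 95% intervals ran from -0.37 to 0.21 with EBF1 and from -0.30 to 0.35 with PAX5. Of these textbook Notch targets, the Hes1 groups were apart in both sets and the Ptcra groups in neither.

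Counted without a model, the 3 EBF1 arrays lay wholly above their controls for 5 member probe sets, wholly below for 4 and overlapped for 9, so that 50.0% did not overlap. Over the array 13.2% of probe sets did not overlap in set 1, 7.06% above and 6.14% below. The PAX5 arrays lay above their controls for 3 member probe sets, below for 3 and overlapped for 12, so that 33.3% did not overlap, where 16.9% of all probe sets did not, 8.14% above and 8.77% below.

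The stretches upstream of the members' start sites were searched for the letters TGGGAA, the core that RBPJ binds, on both strands. RefSeq promoters of GRCm38.p6, each covering 250 bases before to 50 after a start site, were at hand for 8 of the 10 genes (9 entries, Rbpj having 2 that overlap). Hes1 and Mfng had no entry and were not searched. The core was in 25.6% of all 32851 promoters, and in those of 3 of the 8 members. The windows of 30 bases around each match are shown so that its letters and place can be read, with the core in capitals, in either orientation, and each sequence 5′ to 3′ on the strand of the gene.

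Rbpj, plus strand, chr5:53590185-53590214: aatgaaaaaggcTGGGAAcccgcggcgagc

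Rbpj, plus strand, chr5:53590269-53590298: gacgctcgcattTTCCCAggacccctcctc

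Lfng, plus strand, chr5:140607194-140607223: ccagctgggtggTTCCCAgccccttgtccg

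Lfng, plus strand, chr5:140607221-140607250: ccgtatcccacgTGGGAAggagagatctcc

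Ptcra, minus strand, chr17:46763779-46763808: cccagaaagcacTGGGAActagggggtaga

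Ptcra, minus strand, chr17:46763727-46763756: gggtctgtgatcTGGGAAgcagtgtagtag

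The matches of Ptcra began 84 and 32 bases before its start site, and it stayed dim on every array. The windows of Dtx1, Notch1, Notch2, Notch3 and Nrarp held 0 matches to these 6 letters, which says only that the letters are not in these windows. The N box CACNAG, bound by Hes repressors, was in 42.5% of all promoters, with 3 matches in that of Notch1, 2 each in those of Notch3 and Nrarp, and 1 each in those of Dtx1, Notch2 and Lfng.

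Other genes of the pathway were taken from a list of 62, of which 56 were analysed here (113 probe sets). With EBF1 1 probe set rose and 0 fell, and with PAX5 0 passed in either direction (limma). At an unadjusted p under 0.05 there were 16 of the 113 with EBF1 (14.2%, against 9.97% of all probe sets) and 7 with PAX5 (6.19%, against 8.51%). The median log2 change was -0.01 with EBF1 and 0.00 with PAX5, close to those of all probe sets.

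The probe set that rose was 1449939_s_at of Dlk1, an atypical Notch ligand without the domain that engages receptors in trans. Dlk1 1449939_s_at read 685, 979 and 389 on EBF1 arrays, against 94.4, 126 and 95.6 on set 1 controls. It read 55.3, 73.3 and 61.4 on PAX5 arrays, against 109, 137 and 117 on set 2 controls. The groups were apart in both sets, EBF1 arrays above and PAX5 arrays below their controls. The other Dlk1 probe set, 1442724_at, was dim. It read 17.1, 34.1 and 35.5 on EBF1 arrays, against 2.91, 10.2 and 14.3 on set 1 controls, and PAX5 arrays overlapped their controls. Its log2 changes were 0.84 with EBF1 and -0.09 with PAX5 (limma adjusted p = 0.24 and 0.97).

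The log2 change of Dlk1 1449939_s_at was 2.45 with EBF1 (SE 0.29, limma adjusted p = 0.026) and -0.82 with PAX5 (SE 0.32, limma adjusted p = 0.52). The 2 changes differed by 3.27 (SE 0.32, limma adjusted p = 0.0025). With the replicate block the EBF1 change had adjusted p = 0.15 in set 1 alone and 0.018 in the joint fit. The EBF1 call was lost without control 1, 2 or 3 (adjusted p of 0.19, 0.099 and 0.15), without EBF1 array 1 (0.079) or without PAX5 array 1 (0.084). It was also lost at a pseudocount of 1 or 64 (0.072 and 0.13) and with set 1 fitted alone (0.16). Without PAX5 array 1 the difference was 3.16, with adjusted p = 0.062.

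Among the classical ligands, Jag2 and Dll1 were singled out after their values were seen. Jag2 1426431_at read 289, 187 and 59.2 on EBF1 arrays, against 14.2, 44.9 and 20.2 on set 1 controls, and the log2 change of 2.04 did not pass (SE 0.47, limma adjusted p = 0.19). The other Jag2 probe set, 1426430_at, read 204, 194 and 157 with EBF1, against 142, 133 and 143 in controls. Both were higher on all EBF1 arrays, by 0.36 for the second (limma adjusted p = 0.39). Dll1, at 34.3, 26.2 and 47.8 on PAX5 arrays, against 17.8, 11 and 13.6 on set 2 controls, was dim and changed by 0.77 (limma adjusted p = 0.066).

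In the remaining roles 0 probe sets passed in either comparison, and the genes named below had the largest change of their role among probe sets with a group mean of at least 100. For receptor cleavage (8 genes, 18 probe sets) this was Furin, the protease that cuts Notch in the secretory pathway. It read 834, 951 and 1299 on EBF1 arrays, against 2194, 1555 and 1343 on set 1 controls, and 2790, 1956 and 2112 on PAX5 arrays, against 2085, 1488 and 1326 on set 2 controls. EBF1 arrays were below their controls and PAX5 arrays overlapped theirs, with log2 changes of -0.71 and 0.57 (limma adjusted p = 0.35 and 0.6) and a difference of -1.28 (limma adjusted p = 0.063).

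Among 6 probe sets of glycosylation enzymes the changes lay between -0.14 and 0.24 with EBF1 and between -0.21 and 0.04 with PAX5, with Poglut1, the glucosyltransferase of the receptors' repeats, at 0.24 and -0.11. The 11 coactivator probe sets lay between -0.31 and 0.31 with EBF1 and between -0.31 and 0.37 with PAX5. Their named genes were Ep300, a histone acetyltransferase, at -0.16 with EBF1 and the Mastermind gene Maml1 at 0.37 with PAX5 (limma adjusted p = 0.78 and 0.49). The 17 corepressor probe sets ran from -0.46 to 0.24 with EBF1 and from -0.22 to 1.11 with PAX5. The 1.11 was Tle2 1436244_a_at, whose group means were all below 100 (limma adjusted p = 0.26). It read 135, 61.3 and 54.3 on PAX5 arrays, against 46.8, 24.3 and 30.4 on set 2 controls. Of the brighter ones, the Groucho-type Tle3 changed by -0.46 with EBF1 (1458512_at) and Tle4 by 0.31 with PAX5 (limma adjusted p = 0.57 and 0.72). The other Tle3 probe sets changed by -0.45, -0.43 and -0.42 with EBF1. The brightest, 1419655_at, read 1509, 1297 and 1595 on EBF1 arrays, against 1878, 2179 and 1894 on set 1 controls (limma adjusted p = 0.33).

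The 26 probe sets of trafficking and turnover genes ran from -0.64 to 0.55 with EBF1 and from -0.37 to 0.33 with PAX5. Mib1, a ubiquitin ligase that makes ligands competent to signal, was at 0.55 with EBF1, and its relative Mib2 at -0.37 with PAX5 (limma adjusted p = 0.4 and 0.58). The other Hes and Hey genes, relatives of Hes1 and in part Notch targets too, had smaller estimates: their 12 probe sets ran from -0.16 to 0.48 with EBF1 and from -0.41 to 0.08 with PAX5, against 3.28 and 3.14 for Hes1. The named genes were Hes5 for EBF1 and Hes6 for PAX5. Hes5 1423146_at read 98.4, 114 and 91.5 on EBF1 arrays, against 117, 132 and 98.6 on set 1 controls, where the groups overlapped, and changed by -0.16 (limma adjusted p = 0.82). It read 3.22, 14.2 and 4.4 on PAX5 arrays, against 15.7, 8.18 and 2.21 on set 2 controls, too dim to say more of. The other Hes5 probe set, 1456010_x_at, read 85.6, 47.9 and 30 on EBF1 arrays, against 48, 29.6 and 21.8 on set 1 controls. It changed by 0.48 with EBF1 and -0.41 with PAX5 (limma adjusted p = 0.65 and 0.83), and its groups overlapped in both sets. Hes6 1436050_x_at read 1558, 1332 and 1838 on EBF1 arrays, against 1753, 1415 and 1866 on set 1 controls, and 1949, 1660 and 1625 on PAX5 arrays, against 1771, 1421 and 1909 on set 2 controls. The Hes6 groups overlapped in both sets, and the PAX5 change was 0.08 (limma adjusted p = 0.96).

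Of the genes that Notch activates in early T cells, 5 of 6 were analysed here, and 0 of their 9 probe sets passed. Gata3 and Bcl11b, which encode T-lineage transcription factors, Il2ra and Cd3e were at most 91.8 on any array. Gata3 read 8.59, 4.73 and 74.6 on EBF1 arrays, against 57.9, 56.2 and 56.4 on set 1 controls. On PAX5 arrays Gata3 read 48.3, 58.7 and 58.1, against 68.1, 61 and 66.7 on set 2 controls. The log2 changes of Gata3 were -1.02 with EBF1 and -0.23 with PAX5 (limma adjusted p = 0.52 and 0.96). Myc, a bright gene that many signals raise, read 2030, 2523 and 1575 on EBF1 arrays, against 695, 1557 and 1227 on set 1 controls, and 727, 905 and 875 on PAX5 arrays, against 743, 1566 and 1292 on set 2 controls. EBF1 arrays were above their controls and PAX5 arrays overlapped theirs, with log2 changes of 0.86 and -0.50 (limma adjusted p = 0.36 and 0.76).

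**Figure D5:**
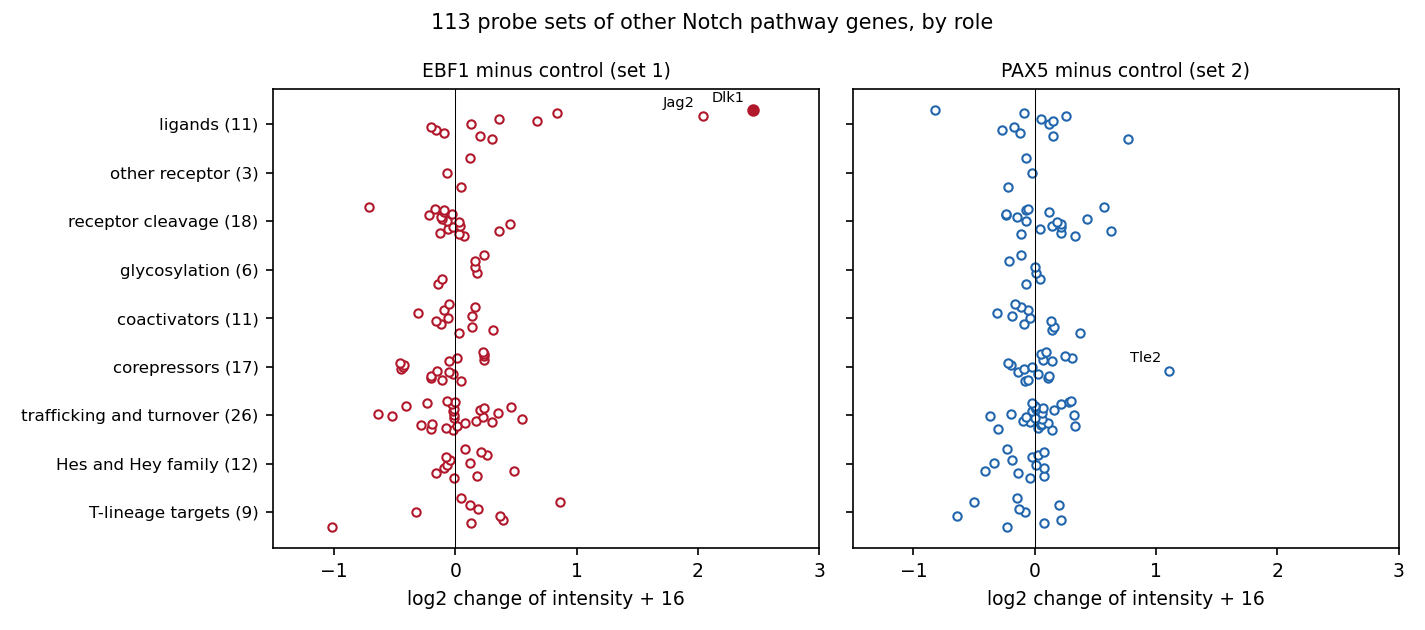
Log2 change of (intensity + 16) for 113 probe sets of other Notch pathway genes, by role with the number of probe sets in brackets, EBF1 minus set 1 control on the left and PAX5 minus set 2 control on the right; the filled point has an adjusted p under 0.05 and vertical scatter within a role only separates points. Dlk1 is the filled point at 2.45, Jag2 lies at 2.04 and Tle2 at 1.11, and the medians are -0.01 and 0.00.

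The genes whose levels over the 8 samples were most like those of Hes1, among 910 probe sets with a mean log2 of at least 6 and enough spread, were Sh3kbp1, Spib, Cd72, Akap12 and Cd24a, with Pearson's r of 0.96 to 0.98. These values describe samples that share controls and fall into transduced and control clusters. Spib, an Ets-family transcription factor of B cells and plasmacytoid dendritic cells, read 726, 898 and 259 on EBF1 arrays, against 61.9, 33.9 and 37.2 on set 1 controls. It read 1681, 1130 and 1268 on PAX5 arrays, against 103, 76 and 60.4 on set 2 controls. As with Hes1, both groups of transduced arrays were above their controls, and EBF1 array 3 was the lowest of the EBF1 arrays. Cd24a, a surface protein that marks early B cells, changed by 2.80 with EBF1 and 2.22 with PAX5 (limma adjusted p = 0.0012 and 0.0036). Sh3kbp1, which encodes an endocytic adaptor, changed by 1.43 and 1.57, Cd72, a B-cell surface receptor, by 1.08 and 1.03, and Akap12, a kinase scaffold, by 1.84 and 1.46, and none of these 3 passed the threshold.

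EBF1 array 3, on which Hes1, Nrarp, Jag2, Dlk1 1449939_s_at and Dtx1 1425822_a_at were lowest of the EBF1 arrays, also differed in markers of other cells. The summed intensity of 14 stromal markers was 2850, 1019 and 12006 on EBF1 arrays, against 2327, 742 and 879 on set 1 controls, and 896, 1924 and 1940 on PAX5 arrays, against 2706, 945 and 1251 on set 2 controls. Summed committed B-cell markers, for 7 of 8 genes, were 26686, 18012 and 10914 on EBF1 arrays and 319 to 403 on set 1 controls, and 4921 to 7341 on PAX5 arrays and 608 to 687 on set 2 controls. The PAX5 sums were mostly Blnk (4877, 3639 and 3351) and Pax5, the factor that the virus carries (1849, 891 and 932). Igll1 read 336, 378 and 359 on PAX5 arrays, against 384, 407 and 400 on set 2 controls. Of the 7 genes, 5 passed the threshold with EBF1 and 2 with PAX5 (limma). EBF1 array 3 thus had the highest stromal and the lowest B-cell sum of its group, and the part of either in the values above was not tested. Fewer cells of a type and less RNA per cell cannot be told apart in such bulk samples.

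T-cell markers, for 10 of 11 genes, summed to 617 to 923 on EBF1 arrays and 927 to 1025 on set 1 controls, and to 587 to 707 on PAX5 arrays and 974 to 1175 on set 2 controls. Of these 10 genes 6 were below 50 on every array, and Cd3e was at most 23.3. Myeloid markers (7 genes) summed to 1171 to 2771 on EBF1 arrays and 3515 to 5360 on set 1 controls, and to 3694 to 4744 on PAX5 arrays and 3975 to 5766 on set 2 controls. Dendritic markers (4 genes) summed to 2826 to 6790 on EBF1 arrays and 6611 to 8275 on set 1 controls, and to 5493 to 6739 on PAX5 arrays and 6595 to 8111 on set 2 controls. Ccr9 and Bst2 made up most of the dendritic sums, and single genes did not all move with their sum. Itgax read 259, 211 and 202 on PAX5 arrays, against 88.9, 79.1 and 42.8 on set 2 controls. Bst2 read 1179, 1350 and 1266, against 1679, 2629 and 1659. The myeloid marker Itgam read 276, 199 and 200, against 164, 170 and 97.9. With PAX5 1 dendritic and 0 myeloid genes passed the threshold (limma). The part of T, myeloid or dendritic cells in the Hes1, Dtx1 or Notch1 values was not tested.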

How the data were processed

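For each of 12 one-colour arrays, in 4 groups of 3, the authors deposited a linear intensity per probe set. Per the labels, labelling followed the standard Affymetrix protocol. The summary method and normalization are not given in the sources used here. On each array 2.5% to 3.05% of probe sets are listed at exactly 1. Of 45037 probe sets the platform annotation gives 34945 a single symbol, 932 several and 9160 none. Deposited intensities were used as log2(intensity + 16), with no further normalization and no filter, and a log2 change understates the change of dim probe sets.

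Changes were tested with limma 3.58.1 (lmFit and eBayes, R 4.3.3), with Benjamini-Hochberg adjustment over all 45037 probe sets and a threshold of 0.05. In 1 fit of 8 samples the offset between control sets was removed probe set by probe set, control arrays of equal number and PAX5 arrays 2 and 3 were averaged, and EBF1 was set against set 1 controls and PAX5 against set 2 controls, with 5 residual and 3.68 prior degrees of freedom. The replicate numbers are in the labels, and deviations of EBF1 and control arrays of equal number correlated at 0.345, 0.608 and 0.391 over 12889 bright probe sets, so they were taken as paired; PAX5 and its controls give fewer than 3 independent pairs. The pairing entered only the alternatives. The fit was tested on simulated data.

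The members, gene lists and marker lists were chosen with earlier results of these data known. Named were all member probe sets, other pathway probe sets past the threshold, for each role the largest change in each comparison among probe sets with a group mean of at least 100, and the 5 genes most correlated with Hes1 among probe sets with a mean log2 of at least 6. The alternatives were other pseudocounts, a filter on dim probe sets, quantile normalization, median centring, other ways of counting arrays, a replicate block, another variance prior, 1 value per gene, and leaving out each replicate. No probe set of a member lists several symbols, so that alternative changed nothing. Figures used matplotlib 3.10.9.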

Additional observations from a re-analysis of the deposited data

Results flagged for a closer look

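The response to EBF1 differed from the response to PAX5 by a test of the difference itself for 3 of the Notch pathway probe sets described here. For Dtx1 1425822_a_at the EBF1 change exceeded the PAX5 change by 1.77 on the log2 scale (limma adjusted p = 0.037). This call was lost in 9 of 17 alternatives, with adjusted p of 0.0011 to 0.36 over all of them. For Dtx1 1458643_at the EBF1 change minus the PAX5 change was -2.01 (limma adjusted p = 0.001). For Dlk1 1449939_s_at it was 3.27 (limma adjusted p = 0.0025). The Dtx1 1458643_at and Dlk1 calls were each lost in 1 of 19 alternatives. The EBF1 and PAX5 arrays lie in different sets, and control levels of Dtx1 1425822_a_at were 1.28 higher in set 2.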

How the results depend on the processing

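No result changed direction past a threshold under any alternative run. Over all probe sets, 44 were called with EBF1, 232 with PAX5 and 473 for the difference. These counts were 14 with EBF1 at pseudocount 64, and 96 with PAX5 and 226 for the difference at pseudocount 1. With all 12 arrays separate they were 295, 638 and 208 (EBF1, PAX5, difference), with PAX5 arrays 2 and 3 separate 95, 464 and 1351, and with each set fitted alone 18 with EBF1 and 378 with PAX5. The mean of a gene's probe sets gave 153 with PAX5. Leaving out 1 replicate gave 18 to 597 with EBF1, 50 to 263 with PAX5 and 78 to 874 for the difference; the EBF1 count was highest without EBF1 replicate 3 and the PAX5 count lowest without PAX5 replicate 1.

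Of the 18 member probe sets, 1 was called with EBF1, and 0 at pseudocount 1 or 64 or with each set fitted alone, and 2 with all 12 arrays or PAX5 arrays 2 and 3 separate. With PAX5 2 were called, and 1 at pseudocount 1 or 64 or with the mean per gene. For the difference 2 were called, 1 at pseudocount 1 or 64, with all 12 arrays separate or with the brightest probe set per gene, 4 with PAX5 arrays 2 and 3 separate, and 0 with the mean per gene. Leaving out 1 replicate gave 0 to 3 with EBF1, 1 to 2 with PAX5 and 1 to 4 for the difference.

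With the replicate block in set 1 alone, 7 probe sets were called with EBF1 and 0 members, and Hes1 kept its change of 3.28 with adjusted p = 0.15. Pairing in the joint fit, added after seeing the data, called 67, with Hes1 at adjusted p = 0.03 and Dlk1 at 0.018. In set 2 the block called 257 with PAX5, with Hes1 at 0.021, but that fit counts PAX5 arrays 2 and 3 separately, so its n exceeds the distinct samples and its p-values are too small. Over all alternatives the Hes1 change was 2.52 to 3.74 with EBF1 (adjusted p 0.00091 to 0.19, past the threshold in 13 of 22) and 2.45 to 3.48 with PAX5 (0.0014 to 0.33, in 15 of 21). Both tallies include fits that count near-identical arrays separately, whose p-values are too small. The 0.0014 came from such a fit, with all 12 arrays separate. The cause of the shifts between alternatives was not tested. The number of samples and dim signals (5 member probe sets below 100 on every array) limit the precision.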
